A study of Mus musculus with 6 samples.

Results

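The genes of the mitochondrial genome were taken as every row of the library files whose gene name starts with mt-. The rule found 37 of 39171 genes: 13 that code for proteins, 2 ribosomal RNAs and 22 transfer RNAs. All 37 carried the same symbol in the GENCODE M21 annotation of GRCm38, which places 37 genes on chromosome MT. RNA came from CD4+ T cells taken from the spleens of C57BL/6 mice, described as premenopausal, by a magnetic CD4 isolation kit. AngII mice received angiotensin II, the blood pressure raising peptide of the renin-angiotensin system, from an osmotic minipump at 800 ng/kg/min for 14 days from 10 weeks of age. Control mice were untreated, were 10 weeks old at the start and were kept for the same 2 weeks. Each group had 3 mice with 1 library each, and the labels name no genetic modification in either.

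Mitochondrial DNA is a small circle that is read from both strands into long transcripts, which are then cut into single RNAs, often at the transfer RNAs that lie between the other genes. Its messenger RNAs encode core subunits of the respiratory chain and ATP synthase, and its ribosomal and transfer RNAs serve the ribosomes that translate them inside the organelle. All other respiratory subunits, and the enzymes that transcribe and process these RNAs, come from nuclear genes. In T cells, respiration supports quiescent and memory states, and activation raises the demand for it.

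The data on these genes were of 3 kinds. Of the 37 genes, 12 were above 0 in all 6 libraries, 12 were listed at 0 in all 6, and 13 were above 0 in 1 to 5 libraries. In all, 118 of 222 values were exactly 0. Over all genes of the files, 41.8% were listed at 0 in every library. Summed FPKM (fragments scaled to transcript length and to the library's mapped fragments) lay between 613674 and 717286 in AngII libraries and between 657145 and 715679 in Control libraries. The number of fragments behind a value was not given. In genes below 0.3 FPKM, the value of a single fragment put depth at 1.02 to 1.09 times that of Control replicate 1 in AngII libraries, against up to 1.12 times in the other Control libraries. These ratios rest on the 9.37% to 17.5% of low genes that shared the most common step.

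Several sequences bear on how these values can be read. The genes lie end to end, and 9 of 36 neighbouring pairs overlap. The end of mt-Nd4l and the start of mt-Nd4 share 7 bases, and the end of mt-Atp8 and the start of mt-Atp6 share 43, shown in capitals below with their flanks (GENCODE M21 transcripts, GRCm38, plus strand, chrM:10137-10203 and chrM:7917-7979).
mt-Nd4l to mt-Nd4: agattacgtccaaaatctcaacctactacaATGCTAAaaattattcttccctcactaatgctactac
mt-Atp8 to mt-Atp6: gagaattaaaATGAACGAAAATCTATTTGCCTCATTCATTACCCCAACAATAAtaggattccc
The authors' deposited table treats each of these overlapping sets as 1 locus. Some mitochondrial genes also have nuclear copies. The first 60 bases of mt-Co2 (chrM:7013-7072) and of its copy Gm13341 (chr2:22587903-22587962, minus strand) differ at 2 bases, given in capitals, and over the 684 bases of mt-Co2 the identity is 95.9%.
mt-Co2: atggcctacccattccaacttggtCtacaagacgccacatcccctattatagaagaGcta
Gm13341: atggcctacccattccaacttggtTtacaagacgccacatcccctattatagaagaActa

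Complex I, which takes electrons from NADH, had 5 of its 7 mitochondrial subunit genes above 0 in every library. mt-Nd1 was at 6925, 9743 and 6605 FPKM in AngII replicates 1, 2 and 3, against 7093, 6706 and 6296 FPKM in Control replicates 1, 2 and 3. AngII replicate 2 stood above the other 5 libraries, which overlapped. mt-Nd3 was at 6663, 9346 and 6918 FPKM in AngII and 6676, 6473 and 6772 FPKM in Control, with the same library on top. mt-Nd2 was at 4496.5, 5207 and 4607 FPKM in AngII libraries and 4422, 4004 and 4238 FPKM in Control libraries, and here the groups did not overlap.

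mt-Nd5 and mt-Nd6 lie on opposite strands with 14 bases in common at their ends. mt-Nd5 was at 2297, 2427 and 2290.1 FPKM in AngII and 2347, 1983 and 1903 FPKM in Control, so that 1 Control library reached into the AngII range. mt-Nd6, the only subunit gene of the minus strand, was at 2969, 3414 and 2549 FPKM in AngII and 2923, 2633 and 2146 FPKM in Control. The ratio of mt-Nd6 to mt-Nd5 was 1.27 ± 0.148 in AngII and 1.23 ± 0.10 in Control (SD, n = 3 each). The labels do not say that strand was used in counting, so fragments of the plus-strand transcript across mt-Nd6 cannot be told apart from mt-Nd6 itself.

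Cytochrome b, the only mitochondrial subunit of complex III, followed mt-Nd1 closely. mt-Cytb was at 6923, 8791 and 6711 FPKM in AngII and 7141, 6667 and 6370.1 FPKM in Control. The ratio of mt-Cytb to mt-Nd1 was 0.902 in AngII replicate 2 and lay between 0.994 and 1.02 in the other 5 libraries. On the FPKM scale, which is per transcript length, mt-Nd1 (7758 ± 1727 in AngII and 6698 ± 399 in Control), mt-Nd3 (7642 ± 1481 and 6640.3 ± 153) and mt-Cytb (7475 ± 1145 and 6726 ± 389; SD, n = 3 each) did not differ from each other beyond their spread. mt-Nd2 came below them in both groups, and mt-Nd6 and mt-Nd5 below mt-Nd2. Of the 20 genes with the highest mean FPKM, 5 were mitochondrial in AngII and 6 in Control. These counts take listed zeros as they stand. Such zeros, described below, hold for mt-Co2 and mt-Nd4 in AngII and for mt-Co1, mt-Co3, mt-Atp6 and mt-Atp8 in all libraries. The counts are therefore not compared between groups and can miss abundant mitochondrial genes.

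The ribosomal RNAs, which form the core of the mitochondrial ribosome, were below most of the messenger RNAs. The 12S rRNA gene mt-Rnr1 was at 1523, 1703 and 1263 FPKM in AngII and 1171, 1215 and 1446 FPKM in Control, with overlapping groups. The 16S rRNA gene mt-Rnr2 was at 2380.3, 2120.4 and 2077 FPKM in AngII and 2066, 2019 and 2014 FPKM in Control, without overlap, although the nearest libraries were 2077 and 2066. The labels name a TruSeq protocol and do not say how ribosomal RNA was treated in it, so these levels are not set against the messenger RNAs as amounts in the cell.

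**Figure D1:**
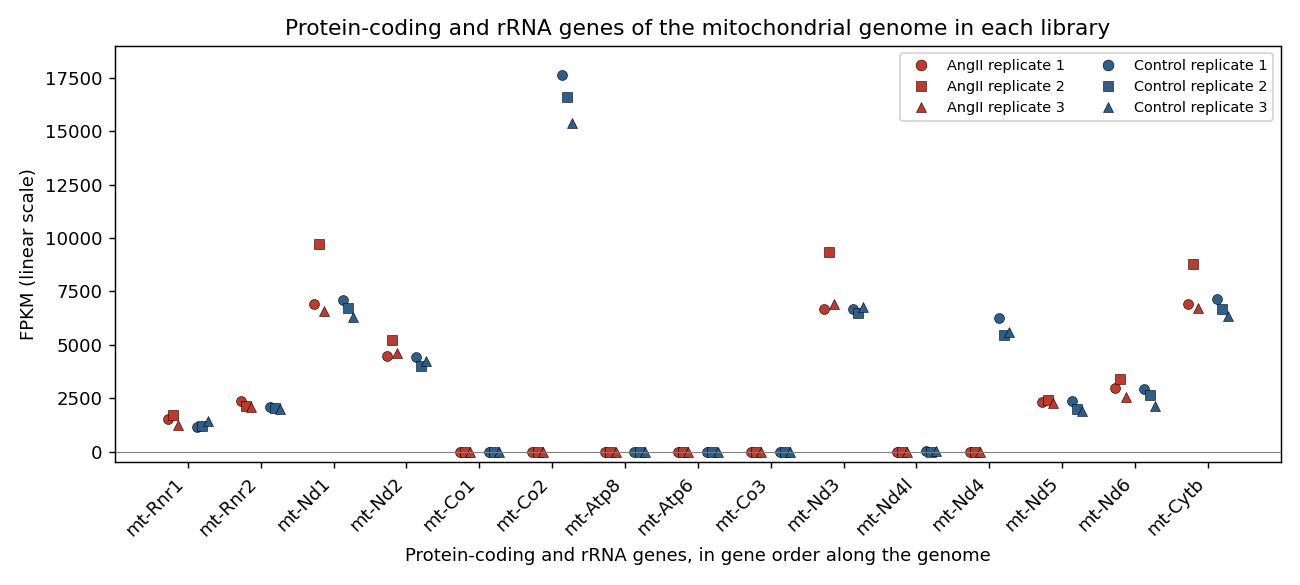
FPKM (linear axis) of the 15 protein-coding and rRNA genes in each library, AngII left of Control, with a symbol per replicate. mt-Co2 and mt-Nd4 lie at 0 in AngII and at 15408 to 17632 and 5454 to 6248 FPKM in Control, and AngII replicate 2 is highest for mt-Nd1, mt-Nd3 and mt-Cytb.

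None of these 8 genes passed the test between groups. It was a two-sided limma test on log2(FPKM + 1) over the 11842 genes averaging 1 FPKM or more, and a call needed a Benjamini-Hochberg adjusted p under 0.05. This scale understates changes of low genes. All 8 genes had a higher mean in AngII, by 7.85% (mt-Rnr2) to 17.2% (mt-Rnr1), and log2 differences of 0.11 to 0.22 with a median of 0.18. The median over all genes tested was -0.004, 48% of them lay above 0, and 6.65% lay at or above 0.18. Unadjusted limma p ran from 0.0957 (mt-Nd2, log2 difference 0.17, SE 0.0885) to 0.299 (mt-Cytb, log2 difference 0.14, SE 0.126), with an adjusted p of 0.9999 for each. The lowest bound of their 95% intervals was -0.21 (mt-Nd1) and the highest 0.60 (mt-Nd6) on the log2 scale. Groups did not overlap, with AngII higher, for 2 of the 8, against 2.36% of all genes tested. Whether the mix of cells or the RNA per cell lies behind a difference in level cannot be told apart in bulk RNA.

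**Figure D2:**
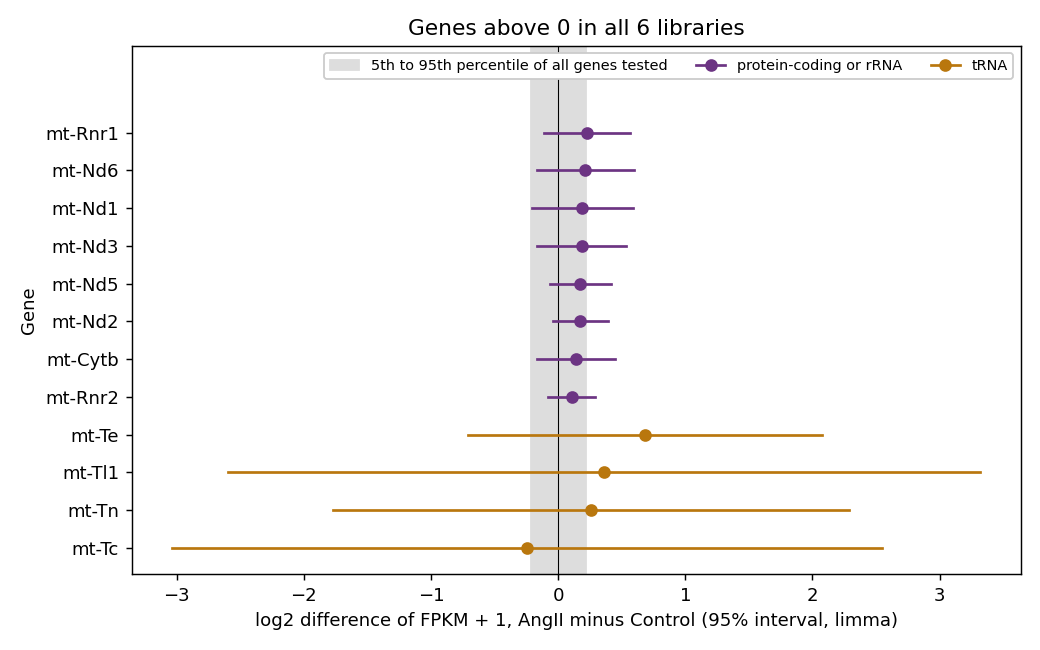
Log2 difference of FPKM + 1 (AngII minus Control) with its 95% interval from limma for the 12 genes above 0 in all 6 libraries. The 8 protein-coding and rRNA genes lie between 0.11 and 0.22 with every interval crossing 0, and the tRNA intervals are several times wider than the grey band, which spans the 5th to 95th percentile of all genes tested (-0.22 to 0.22).

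This difference depended most on AngII replicate 2, though not on that library alone. Set against each gene's own mean over the 6 libraries, the 8 genes had a median deviation of 0.31 (log2) in AngII replicate 2, of 0.03 and -0.05 in AngII replicates 1 and 3, and of -0.02, -0.11 and -0.11 in Control replicates 1, 2 and 3. AngII replicate 2 was the highest library for 7 of the 8, all but mt-Rnr2. Over nuclear genes averaging 1 FPKM or more, its median deviation was -0.02. Within that library the genes did not move evenly, since the deviation was 0.45 for mt-Nd1 and 0.40 for mt-Nd3, against 0.14 for mt-Nd5 and 0.01 for mt-Rnr2. Without AngII replicate 2 the 8 log2 differences lay between 0.02 and 0.15 and their median was 0.11. The differences of mt-Nd1 (0.02), mt-Cytb (0.02) and mt-Nd3 (0.03) moved most, and those of mt-Nd5 (0.15) and mt-Rnr2 (0.13) least. Without Control replicate 3, the lowest library for 5 of the 8 genes, the median was 0.13. It was 0.16 without Control replicate 2, and between 0.20 and 0.23 with any other single library left out.

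**Figure D3:**
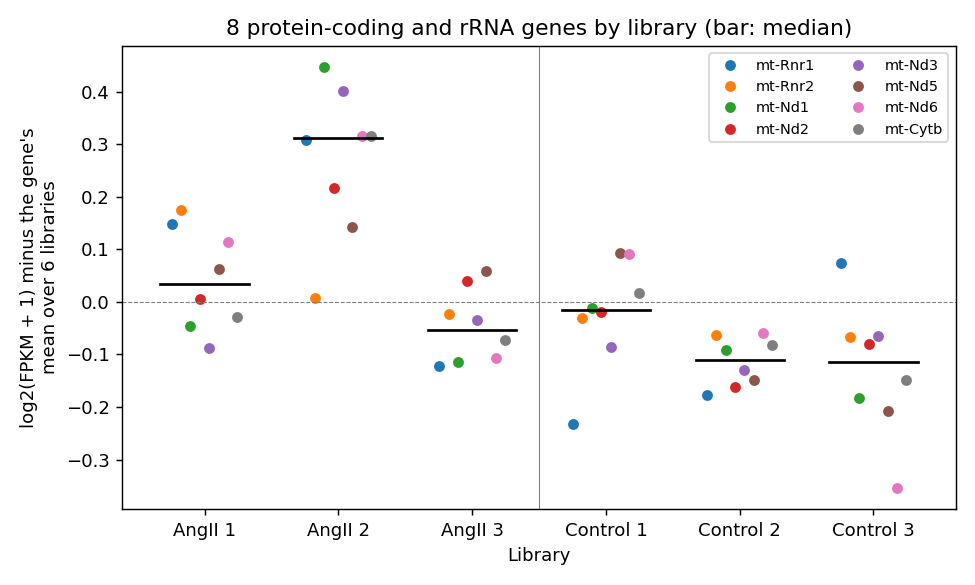
Log2(FPKM + 1) of 8 genes in each library, minus the gene's mean over the 6 libraries, with the median as a bar. AngII replicate 2 has a median of 0.31 and holds all 8 genes above their own mean, and the other libraries have medians between -0.11 and 0.03.

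AngII replicate 2 also stood apart in macrophage transcripts. Macrophage markers (C1qa, C1qb, Adgre1, Vcam1 and Hmox1, all 5 measured) summed to 2042 FPKM there, to 1017 and 980 FPKM in the other AngII libraries and to between 776 and 1330.3 FPKM in Control libraries. CD4 T cell markers (7 of 7 measured) summed to between 3043 and 3319 FPKM in AngII and between 2996 and 3515 FPKM in Control. The ranges were 9.73 to 13.7 and 10.7 to 11.8 FPKM for CD8 T cell markers (2 of 2), 579 to 941 and 651 to 1139 FPKM for B cell markers (5 of 5), and 43.8 to 50.4 and 40.9 to 57.8 FPKM for NK cell markers (3 of 3), in AngII and Control. Neutrophil markers (6 of 6) summed to 23.6 to 74.6 FPKM in AngII and 7.79 to 41.4 in Control, platelet markers (4 of 4) to 151 to 201 and 76.7 to 239, and erythroid markers (4 of 4) to 153 to 629 and 288 to 478. AngII replicate 2 was at 74.6 FPKM for neutrophil markers, next to 71.7 FPKM in AngII replicate 3. For B cell, platelet, erythroid, CD8 and NK markers it was below the highest Control library. No marker was at 0 in any library. The part of these cells in the mitochondrial values was not tested.

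The cytochrome c oxidase and ATP synthase genes could hardly be compared. mt-Co1 and mt-Co3, which code for catalytic core subunits of complex IV, and mt-Atp6 and mt-Atp8, of the membrane part of ATP synthase, were listed at 0 in all 6 libraries. In the authors' deposited table, mt-Co1, and mt-Atp6 with mt-Atp8 and mt-Co3, had the status too deep to estimate, and so had mt-Ts1, which overlaps the end of mt-Co1 by 3 bases. These are 3 of the only 4 loci with that status among 39977 rows, and the fourth is Eef1a1, the abundant translation elongation factor. Their 0 values are therefore not read as absence.

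mt-Co2, whose product carries the copper centre that takes electrons from cytochrome c, was listed at 0 in AngII replicates 1, 2 and 3, while Control replicates 1, 2 and 3 were at 17632, 16624 and 15408 FPKM. mt-Nd4, a proton-pumping subunit of complex I, was listed at 0 in all 3 AngII libraries, against 6248, 5454 and 5582 FPKM in Control. A gene with 0 throughout a group has no spread there, so a p only restates the zeros, and neither a p nor a fold change is given for these genes. They are the 2 of 24 mitochondrial genes that limma counts past the threshold, among 4 of 11842 genes with AngII lower (0.0338%) and 0 with AngII higher (0.0%). With genes at 0 in a whole group left out, the mitochondrial count was 0. At an unadjusted p below 0.05, 135 of all genes were lower (1.14%) and 73 higher (0.616%).

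The authors' deposited table, which holds their own test between both conditions, goes against these zeros. Its fold changes for mt-Co2 and for the joined locus of mt-Nd4 and mt-Nd4l are finite and not 0, so in the authors' deposited table both loci were above 0 in each condition, whichever is AngII. It lists 31 mitochondrial loci, of which 19 were tested, and 0 of them were significant, against 37 loci in the whole table. In the authors' deposited table p was 0.3744 for mt-Co2 and 0.2016 for the joined locus of mt-Nd4 and mt-Nd4l. Over its 10 tested loci of protein-coding or rRNA genes the p of the authors' deposited table ran from 0.05265 (mt-Rnr1) to 0.6149 (mt-Nd6), with a q of 0.9999 for each. The conditions in it are named only by number, so no direction was taken from it. The zeros of mt-Co2 and mt-Nd4 in the AngII files are therefore not read as lower levels in AngII cells, and their cause was not tested.

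The zeros of mt-Co2 and mt-Nd4 enter any sum over the mitochondrial genes. All 37 genes together made up 7.01%, 7.22% and 7.4% of summed FPKM in AngII libraries, against 9.92%, 8.39% and 8.83% in Control libraries. The 8 protein-coding and rRNA genes above 0 in every library made up 5.57%, 6.66% and 4.6% in AngII, against 4.73%, 4.57% and 4.75% in Control. The first set of values holds those zeros and is not read as a difference. The second set is still divided by a total that holds mt-Co2 and mt-Nd4 in Control alone. Relative to the sum over nuclear genes, the 8 genes stood at 5.99%, 7.18% and 4.97% in AngII replicates 1, 2 and 3. Control replicates 1, 2 and 3 stood at 5.25%, 4.99% and 5.21%. On this measure AngII replicates 1 and 2 lay above the Control range and AngII replicate 3 just below it.

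mt-Nd4l, the small complex I subunit, was listed at 0 in the AngII libraries and at 1.05, 0 and 0.903 FPKM in Control replicates 1, 2 and 3, below the limit of 1 FPKM on average, and was not tested. Its neighbour mt-Nd4 stood at 5454 to 6248 FPKM in the same Control libraries, although the genes overlap. A nuclear pseudogene, Gm10222 on chromosome 1, is identical to mt-Nd4l over 294 bases. Gm10222 was at 0, 1.36 and 1.09 FPKM in AngII replicates 1, 2 and 3 and at 1.05, 0.502 and 1.35 FPKM in Control replicates 1, 2 and 3. In Control replicate 1 both were given the same value of 1.05 FPKM.

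A search of all GENCODE M21 transcripts with the 37 mitochondrial genes (BLAST, at least 90% identity over at least 50 bases) found 18 nuclear genes that match 13 of them. Of these, 10 were in the library files and 3 had a mean of at least 1 FPKM; the other 8 were not analysed here. Those 8 include Gm28661 and Gm28439 on chromosome 1, which are identical to 681 bases of mt-Co2 and to the first 876 bases of mt-Nd4. Gm13341, 95.9% identical to mt-Co2 over its whole length, was at 2.39, 4.26 and 2.1 FPKM in AngII and 1.57, 1.74 and 1.6 FPKM in Control, without overlap. Its limma log2 difference was 0.53 (SE 0.213, 95% interval 0.01 to 1.05, unadjusted p = 0.0467), which did not pass (adjusted p = 0.9999), and it was 0.30 without AngII replicate 2. Gm13340, 97.6% identical to mt-Co1, was at 1.20 ± 0.273 FPKM in AngII and 1.23 ± 0.138 FPKM in Control (SD, n = 3 each), and Cep295, a centrosome gene with a retained intron that resembles mt-Tn and mt-Tl1, at 5.69 ± 0.357 and 5.11 ± 0.174 FPKM. Of the 8 genes compared between groups, mt-Nd3 has a copy (Gm28438, not in the library files) that is 99.7% identical over 345 bases. Copies of mt-Nd2 (96.7%), mt-Nd5 (95.2%), mt-Nd6 (93.6%) and mt-Cytb (92.9%) are less alike. The values of all 13 matched genes, with mt-Co1, mt-Co2, mt-Nd4 and mt-Nd4l among them, are uncertain where the authors' counting could split fragments between such copies. How fragments were assigned was not tested.

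Transfer RNAs bring the amino acids to the mitochondrial ribosome. Their genes are only 59 to 75 bases long, so a few fragments give a large FPKM. Of 22 tRNA genes, 4 were above 0 in all 6 libraries, 8 were listed at 0 in all 6, and 5 were above 0 in exactly 1 library; 84 of 132 tRNA values were 0. Each AngII library had 10, 9 and 6 of them above 0 (replicates 1, 2 and 3), against 8, 7 and 8 in Control.

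Annotated strand went with values above 0. Of the 8 tRNA genes annotated on the minus strand, 6 were above 0 in at least 5 libraries (mt-Tn, mt-Tc, mt-Te, mt-Ta, mt-Ty and mt-Tp), and mt-Tq was above 0 in 2. Of the 14 on the plus strand, which the large rRNA and messenger transcript also uses, 1 was above 0 in at least 5 libraries (mt-Tl1) and 7 were at 0 throughout. mt-Tf, mt-Tv, mt-Ti, mt-Td, mt-Tg, mt-Tr and mt-Ts2 are these 7, and mt-Ts1 is the only minus-strand gene at 0 throughout. The authors' deposited table gave mt-Ts1 the status too deep to estimate, so its 0 is not read as absence. The strand comparison is a count over genes that share transcripts and libraries, with no test. As for mt-Nd6, the labels do not say that strand was used in counting. Fragments of the plus-strand transcript across a minus-strand tRNA gene therefore cannot be told apart from that tRNA. Examples of both kinds follow, read on each gene's own strand with the anticodon in capitals: 3 minus-strand genes above 0 in all libraries (chrM:5089-5159, chrM:5192-5257 and chrM:14071-14139), the plus-strand exception mt-Tl1 (chrM:2676-2750), and mt-Tf, listed at 0 throughout (chrM:1-68).
mt-Tn: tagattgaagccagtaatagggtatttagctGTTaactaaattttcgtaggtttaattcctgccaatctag
mt-Tc: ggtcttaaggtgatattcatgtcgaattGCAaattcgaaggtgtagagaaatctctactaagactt
mt-Te: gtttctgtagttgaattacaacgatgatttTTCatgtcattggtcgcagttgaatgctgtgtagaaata
mt-Tl1: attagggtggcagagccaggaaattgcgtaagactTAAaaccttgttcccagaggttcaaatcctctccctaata
mt-Tf: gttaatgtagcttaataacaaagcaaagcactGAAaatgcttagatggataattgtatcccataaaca

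**Figure D4:**
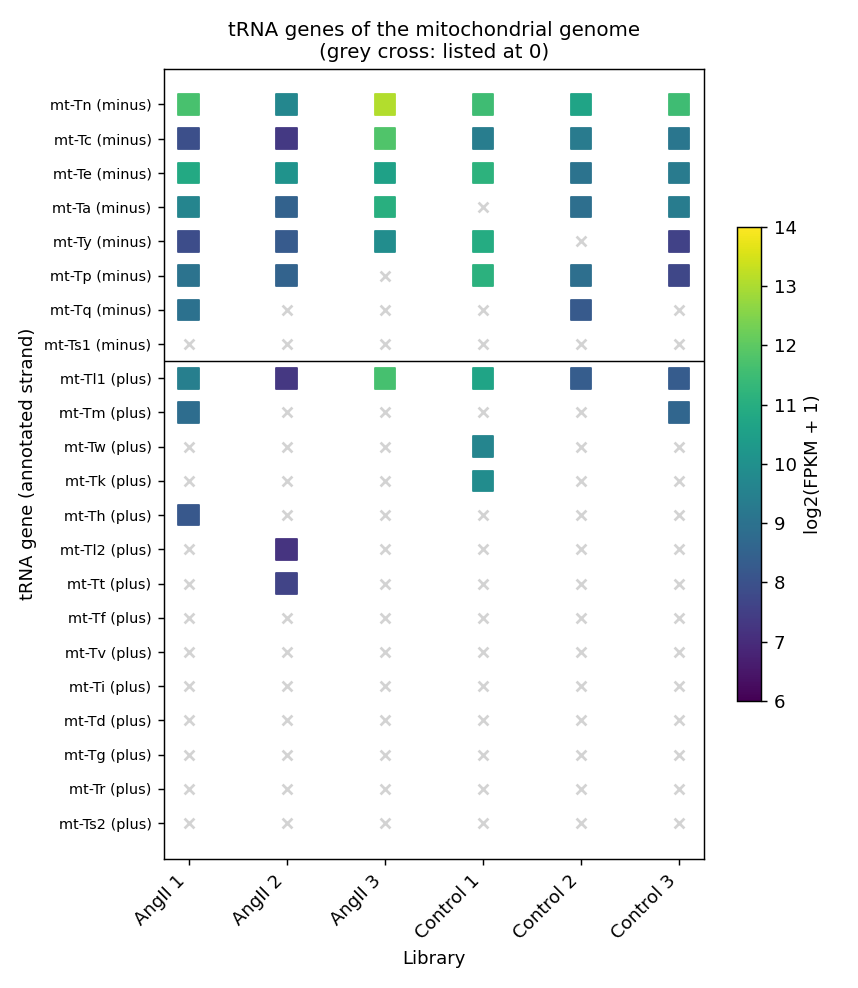
Log2(FPKM + 1) of the 22 tRNA genes in each library as coloured squares, with grey crosses for values listed at 0 and minus-strand genes above the line. Filled rows gather among the minus-strand genes, where 6 of 8 were above 0 in at least 5 libraries, against 1 of 14 plus-strand genes. Strand is that of the annotation, and the labels do not say that it was used in counting.

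The tRNA values spread far more between mice than the longer genes. mt-Tn, for asparagine, was at 3280.1, 837 and 8672 FPKM in AngII and 2920, 1646 and 2905 FPKM in Control. mt-Tc, for cysteine, was at 240.4, 161 and 3560.1 FPKM in AngII and 649, 627 and 566 FPKM in Control. In both genes AngII replicate 3 was highest and AngII replicate 2 lowest, so that the AngII libraries lay on either side of all Control libraries.

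mt-Tl1, for leucine, was at 684, 157 and 3222 FPKM in AngII and 1643, 318 and 313 FPKM in Control. mt-Te, for glutamate, was at 1836, 1093 and 1539 FPKM in AngII and 2251, 529 and 625 FPKM in Control. The groups of both genes overlapped, and for mt-Te the highest library was Control replicate 1. mt-Ta, for alanine, was above 0 in every library but Control replicate 1, at 798, 360.0 and 2135 FPKM in AngII and 0, 469.9 and 646 FPKM in Control. mt-Tp, for proline, was listed at 0 in AngII replicate 3 and was at 524 and 362.7 FPKM in AngII replicates 1 and 2, against 2196, 470.2 and 206 FPKM in Control. mt-Ty, for tyrosine, was at 233, 308 and 939 FPKM in AngII and 1923, 0 and 192 FPKM in Control.

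The remaining tRNA genes were above 0 in 1 or 2 libraries. In AngII, mt-Tq was at 507 FPKM and mt-Tm at 456 FPKM in replicate 1, and in Control mt-Tq was at 302 FPKM in replicate 2 and mt-Tm at 388 FPKM in replicate 3. mt-Th (287 FPKM, AngII replicate 1), mt-Tl2 (145 FPKM) and mt-Tt (192 FPKM, both AngII replicate 2) were seen in AngII libraries. mt-Tw (789.5 FPKM) and mt-Tk (929 FPKM) were seen in Control replicate 1 alone.

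The within-group SD of log2(FPKM + 1) was 0.851 to 1.82 for the 4 tRNA genes above 0 in all libraries, against 0.0763 to 0.225 for the 8 protein-coding and rRNA genes and a median of 0.128 over 11502 genes. Other genes of at most 100 bases that were above 0 in all libraries had an SD of 1.06 to 2.09 (5 genes), and AngII replicate 3 was the highest library for all 5. It was also the highest for 3 of the 4 tRNA genes. No tRNA gene passed limma: the log2 differences of these 4 ran from -0.24 (mt-Tc, SE 1.14) to 0.68 (mt-Te, SE 0.568), with an adjusted p of 0.9999 for each. The part of short transcripts as a class in the tRNA values was not tested.

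Nuclear genes that serve the mitochondrial genome showed no call in either direction. Of 34 genes for its transcription, replication and RNA processing, 0 passed limma in either direction, 0 had an unadjusted p below 0.05, 21 had a log2 difference above 0, and the median was 0.01. The 4 of smallest p were Pnpt1, a mitochondrial RNA-degrading enzyme (10.1 ± 0.162 FPKM in AngII and 9.24 ± 0.278 in Control), Grsf1, an RNA granule protein (35.7 ± 1.44 and 32.8 ± 1.03), Rexo2, a nuclease that removes short RNAs (65.1 ± 5.47 and 72.2 ± 2.49), and Trmt10c, a subunit of the tRNA-cutting enzyme RNase P (12.8 ± 1.25 and 11.7 ± 0.433; SD, n = 3 each). Their log2 differences were 0.12, 0.12, -0.15 and 0.11. Groups did not overlap for 2 of the 34, with AngII higher, against 2.36% of all genes tested.

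Of 14 listed regulators of mitochondrial biogenesis 12 were tested, and Ppargc1a and Ppara averaged below 1 FPKM. Among the 12, 0 passed limma, 0 had an unadjusted p below 0.05, and the median log2 difference was -0.01. Above 0 lay 5 and below 0 lay 7, although the 4 of smallest p were all above 0. Sirt1 and Sirt3, both NAD-dependent deacetylases, had 0.14 and 0.15. The nuclear receptor gene Esrra had 0.08 and Gabpa, which activates respiratory genes, 0.07. Of 22 genes that charge mitochondrial tRNAs, 0 passed, 0 had an unadjusted p below 0.05, and 11 lay above and 11 below 0. Kars (lysine) had a log2 difference of -0.08, Vars2 (valine) of 0.13 and Aars2 (alanine) of 0.12.

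Nuclear subunits that sit beside the mitochondrial ones mostly had log2 differences below 0. Of 20 such genes of complexes I, III and IV and ATP synthase, 18 lay below 0, with a median of -0.09. None was past the threshold (0 at an unadjusted p below 0.05), and of all genes tested 48% lay above 0. For most of the 20 genes AngII replicate 1 was the lowest of the 6 libraries, among them Cox7c (194 FPKM) and Atp5o (135 FPKM). For Atp5b and Ndufs7 the lowest was AngII replicate 2. Groups did not overlap, with AngII lower, for 3 of the 20, where the share over all genes tested was 3.48%. Cox7c, a small subunit of complex IV, was at 203 ± 11 FPKM in AngII and 224 ± 9.79 FPKM in Control, and Atp5b, the catalytic subunit of ATP synthase, at 376.9 ± 2.77 and 404 ± 16.8 FPKM (SD, n = 3 each). Atp5o and Ndufs7 had log2 differences of -0.13 and -0.11. The 4 genes of complex II, which has no mitochondrially encoded subunit, had log2 differences between -0.07 (Sdhb) and -0.01 (Sdhd), with Sdhc at -0.07 and Sdha at -0.01. The difference between these lists and the mitochondrial genes was not tested.

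**Figure D5:**
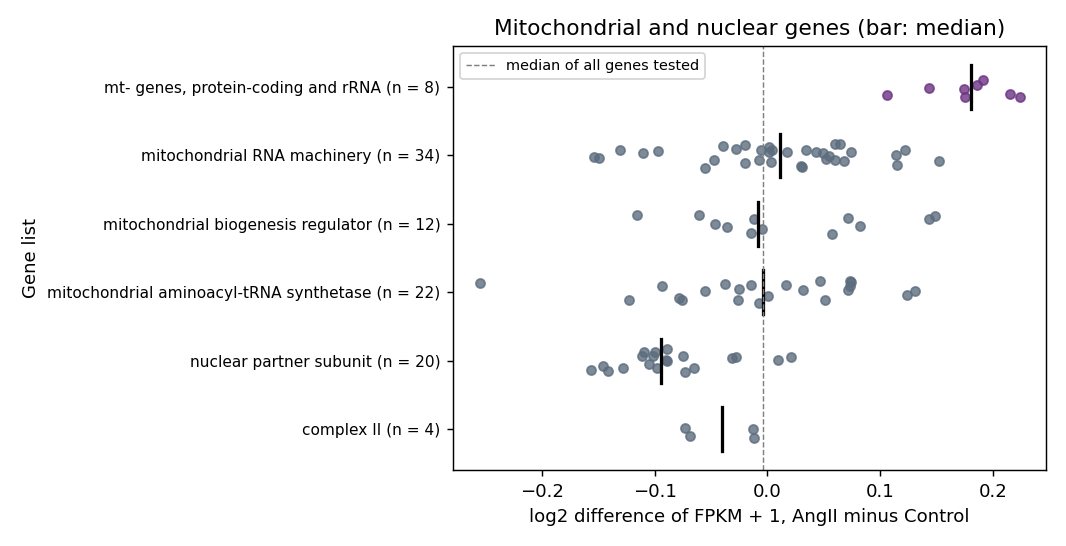
Log2 difference of FPKM + 1 (AngII minus Control) for each gene, with a row per list and its median as a bar. The 8 mitochondrial genes lie at 0.11 to 0.22, the 20 nuclear partner subunits have a median of -0.09, and no gene shown passed the threshold.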

How the data were processed

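Each library's file gives FPKM for 39171 genes, as the authors deposited them. A table of the whole series holds the authors' own test, per the file headers: each locus has a status, a p-value and a q-value. Its conditions are named only by number, so its levels were not set against the groups; its fold changes were read only for whether both conditions were above 0. Per the submitters' processing notes the tools were Trimmomatic 0.32, TopHat2 2.1.1 and Cuffdiff on GRCm38.p3; settings, annotation release and the program that wrote the FPKM are not stated in these sources. FPKM are not counts, so no count test was run. Log2(FPKM + 1) was fitted with limma 3.58.1 (R 4.3.3; group as the only term, eBayes with an intensity trend, two-sided) for 11842 genes averaging 1 FPKM or more; 24 of the 37 mitochondrial genes passed this filter and 13 did not. The code was tested on simulated data. Adjusted p-values cover all genes tested. Gene positions and sequences are those of GENCODE M21 (GRCm38); nuclear copies were found with BLAST+ 2.17.0. Prorp, of the 35 RNA machinery genes listed, was not matched. The labels do not tie replicate numbers to a shared cage or day. Tables and plots were made in Python 3.11.15 with pandas 2.3.3, numpy 2.4.6 and matplotlib 3.10.9. The members and lists were chosen with earlier results of these data known. Every mitochondrial gene is named, with nuclear copies of at least 1 FPKM and the 4 genes with the lowest p in each list, except 1 that is not reported here. Alternatives were other pseudocounts, filters, scalings and variance models, a replicate block, a threshold of 0.1, genes at 0 in a whole group left out, and each library left out.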

Additional observations from a re-analysis of the deposited data

How the results depend on the processing

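The count of mitochondrial genes past the limma threshold was 2 in the reported fit and 2 under every alternative run except 1: with genes at 0 in a whole group left out it was 0, because mt-Co2 and mt-Nd4 are then not fitted; a count that restates listed zeros shows no stability. The count over all genes, 4 in the reported fit, was 1 under that setting and 7 with no filter on low values, and lay between 4 and 9 when single libraries were left out (9 without AngII replicate 3, 8 without Control replicate 1, 7 without Control replicate 3). The median log2 difference of the 12 genes above 0 in all libraries was 0.19; it was 0.298 with quantile normalization, and 0.127 to 0.221 with single libraries left out. The 8 protein-coding and rRNA genes, a set chosen after seeing the data, stayed above 0 in all 136 of their alternative values. Of these values, 0 passed the threshold. Filters, variance models, the replicate block and leaving out genes at 0 cannot change a log2 difference, so those values repeat the reported fit. Other pseudocounts barely move genes at this level. The 136 values are therefore not separate checks of direction. The 48 values with single libraries left out ran from 0.016 (mt-Nd1, without AngII replicate 2) to 0.34 (mt-Rnr1, without AngII replicate 3). tRNA directions changed when single libraries were left out: mt-Tc ranged from -1.634 to 0.595, mt-Tl1 from -0.736 to 1.44 and mt-Tn from -0.539 to 1.15. With the replicate number as a block, 3 genes passed, 2 of them mitochondrial; same-numbered libraries showed no pairing (correlations of deviations -0.08, -0.02 and -0.04). Depth in fragments is unknown, and tRNA genes are short enough that few fragments set their FPKM.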

Other observations

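Genes listed at 0 in every library of 1 group were lopsided. With a floor of 1 FPKM in each library of the other group, 5 genes were at 0 in all AngII libraries and 0 genes were at 0 in all Control libraries. With a floor of 1000 FPKM the counts were 2 and 0, and the 2 genes are mt-Co2 and mt-Nd4, which the authors' deposited table has above 0 in both conditions.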
